A study of Homo sapiens with 48 samples.

Results

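The comparison set the EZH2 inhibitor GSK343 (EZH2i) against the solvent DMSO in Oci-Ly8, an established line of germinal-centre B-cell-like diffuse large B-cell lymphoma. It took 6 of the 48 RNA-seq libraries of the study: EZH2i replicates 1 to 3 against DMSO replicates 1 to 3, all after 6 days of treatment, with reseeding into fresh medium and inhibitor at day 3. Every gene was described, 37706 in the count table, of which 17749 passed the filter on low counts and were tested. The study also treated Oci-Ly8 with the DOT1L inhibitor EPZ-5676 (DOT1Li) and with both inhibitors together (the combination), and gave the same 4 treatments to the lines Oci-Ly7, SUDHL6 and Oci-Ly18, with 3 replicates per group. The labels give no dose, and they do not say whether replicates were separate cultures. The p-values therefore rest on a spread between libraries, estimated over all 48, which may be technical. All libraries were poly(A)-selected and stranded, and a change in bulk RNA cannot tell fewer cells that express a gene from less RNA of that gene per cell.

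EZH2 is the methyltransferase of Polycomb repressive complex PRC2, which places a repressive methyl mark on lysine residues of histone H3 and keeps genes silent together with the complex PRC1. Germinal centre B cells carry much EZH2, and there the complex is known to hold down plasma cell genes and cell-cycle inhibitors while the cells divide. GSK343 competes with the methyl donor of the enzyme, so it acts on the activity of EZH2 and not on its transcript.

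The 6 libraries held 13403899 to 18262916 counts. DMSO replicate 3 stood apart from the other 5. In CPM, the counts of a gene scaled to a common library size, the slope of its gene levels on exonic length, both as log2, was 0.202, against 0.446, 0.439 and 0.433 in the EZH2i libraries and 0.447 and 0.409 in DMSO replicates 1 and 2, so long transcripts were low in it. Between EZH2i libraries the chi-square of the counts per degree of freedom was 2.65 to 3.06, while it was 15.1 between DMSO replicates 1 and 2 and 48.8 and 50.3 in the pairs with DMSO replicate 3. The DMSO libraries thus differed more among themselves than the EZH2i libraries did. With the tested genes of a mean log2 CPM of at least 1 split into 3 equal classes of exonic length, the median log2 change of EZH2i over DMSO was -0.12 in the shortest class and 0.05 in the longest. Without DMSO replicate 3 these medians were -0.0052 and -0.014. The counts of calls in gene lists below are therefore also given for the genes that kept their call without that library.

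After 6 days of EZH2i, 1605 genes were called higher, 9.04% of those tested, and 1409 were called lower, 7.94%, at an adjusted p below 0.05. These 2 shares are the background for every gene list below. Calls come from edgeR's quasi-likelihood test with Benjamini-Hochberg adjustment over all 17749 genes. The changes were mostly small: the median log2 change was 0.54 among genes called higher and -0.42 among genes called lower, against -0.0145 over the 16702 tested genes with a count in the 6 libraries. A change of at least 1 on the log2 scale was called for 444 genes higher (2.5%) and 203 lower (1.14%). The values of the 2 groups did not overlap in 1449 of the 1605 genes called higher and 1010 of the 1409 called lower. Lack of overlap, given for single genes below, was therefore common to most called genes. Without DMSO replicate 3, 1030 of the genes called higher (5.8% of those tested) and 551 of those called lower (3.1%) kept their call. The genes called lower that lost it had a median exonic length of 3286 bases, and those called higher that lost it one of 6501 bases, against 4374.5 over the tested genes. The spread in this fit comes from all 48 libraries. Fitted on the 6 libraries alone, 352 genes were called higher and 104 lower.

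**Figure D1:**
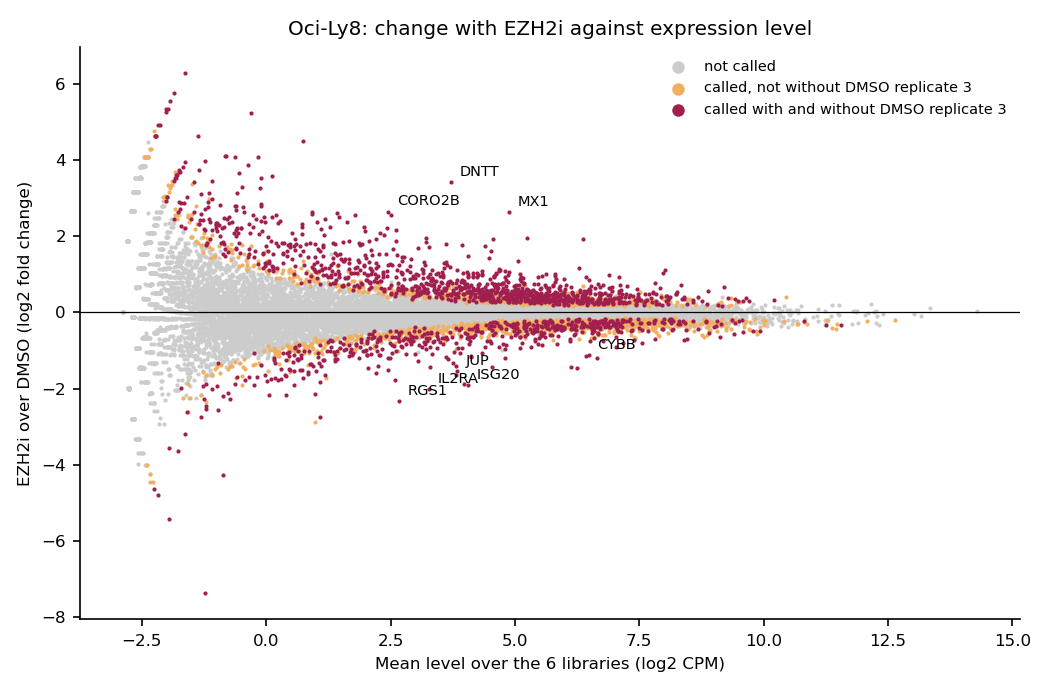
Log2 fold change of EZH2i over DMSO (vertical axis) against mean level in log2 CPM over the 6 Oci-Ly8 libraries (horizontal axis), 1 point per tested gene. Crimson genes were called with and without DMSO replicate 3 (1030 higher and 551 lower), orange genes were called with all 6 libraries but not without it, and grey genes were not called.

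DNTT had the highest log2 change among coding genes that averaged a log2 CPM of at least 1 and kept their call without DMSO replicate 3, and 9 further genes are named by the same rule. DNTT (ENSG00000107447, chr10:96304409-96338564, GRCh38 with GENCODE 29 coordinates) encodes terminal transferase, the template-independent DNA polymerase of early lymphocyte progenitors. It stood at 40.4, 44.4 and 42.4 CPM in EZH2i replicates 1 to 3, against 4.15, 4.32 and 3.35 CPM in DMSO replicates 1 to 3. The groups were far apart, with a log2 change of 3.42 ± 0.20 (SE, n = 3 each; edgeR adjusted p = 6.18e-16). CORO2B, a coronin that binds actin (ENSG00000103647, chr15:68578993-68727806), stood at 11.7, 14 and 14.9 CPM in EZH2i, against 1.78, 2.9 and 1.72 CPM in DMSO, a log2 change of 2.65 ± 0.16. ZNF629, a zinc finger protein gene (ENSG00000102870, chr16:30778456-30787205), stood at 10.9, 14.4 and 14.5 CPM in EZH2i, against 2.08, 2.41 and 2.32 CPM in DMSO, a log2 change of 2.55 ± 0.14. None of these 3 groups of values overlapped, and the adjusted p was 6.77e-18 for CORO2B and 1.55e-19 for ZNF629. In the fit of the 6 libraries alone, the edgeR adjusted p was 1.30e-05 for DNTT, 1.35e-03 for CORO2B and 5.28e-04 for ZNF629.

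The other 7 genes with the highest changes were the antiviral GTPase MX1 (2.64), the scaffold protein gene SLC9A3R2 (2.61), RTKN2 (2.55), BHLHA15 (2.52), CALML6 (2.46), the small GTPase RAB15 (2.37) and INHBE (2.36). BHLHA15 encodes MIST1, a transcription factor of secretory cells, and had 9.25, 3.42 and 8.39 CPM in EZH2i, against 2.08, 0.354 and 1.29 CPM in DMSO. In these genes too the EZH2i values lay above all DMSO values, though DMSO replicate 1 was the highest DMSO library for SLC9A3R2, BHLHA15 and INHBE. Without it their log2 changes were 3.30, 3.16 and 3.11.

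RGS1 had the lowest log2 change by the same rule. It encodes a regulator of G-protein signalling that damps chemokine receptors (ENSG00000090104, chr1:192575763-192580024). It stood at 3.74, 2.38 and 3.07 CPM in EZH2i, against 25.4, 5.09 and 15.8 CPM in DMSO, a log2 change of -2.32 ± 0.41 (adjusted p = 1.02e-04). IL2RA, the alpha chain of the interleukin-2 receptor, stood at 5.51, 5.13 and 4.34 CPM in EZH2i, against 30.8, 9.98 and 19.8 CPM in DMSO, a log2 change of -2.02 ± 0.21. In both genes the EZH2i libraries were close together and low, and the DMSO libraries were spread widely with replicate 1 highest and replicate 2 lowest. The same order of DMSO libraries held for SNCB (-1.65), TCP11L2 (-1.60) and RSPH6A (-1.55). For SNCB and TCP11L2 the groups overlapped, and without DMSO replicate 1 the log2 change of TCP11L2 was -0.87.

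The falls of LCK and JUP were more even across libraries. LCK, a Src-family kinase best known from T cells that some B-cell lymphomas also carry, had 6.54, 8.04 and 9.08 CPM in EZH2i, against 20.2, 24.8 and 29.4 CPM in DMSO (log2 change -1.64 ± 0.12, adjusted p = 4.83e-15). JUP, which encodes the junction protein plakoglobin, had 8.3, 9.08 and 7.7 CPM in EZH2i, against 25.6, 27 and 20.3 CPM in DMSO (log2 change -1.55 ± 0.10, adjusted p = 8.47e-17). ISG20 (-1.91), the mucin-like gene FCGBP (-1.84) and the interleukin-10 receptor gene IL10RA (-1.78) complete the 10 lowest, and in all 3 the groups did not overlap.

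**Figure D2:**
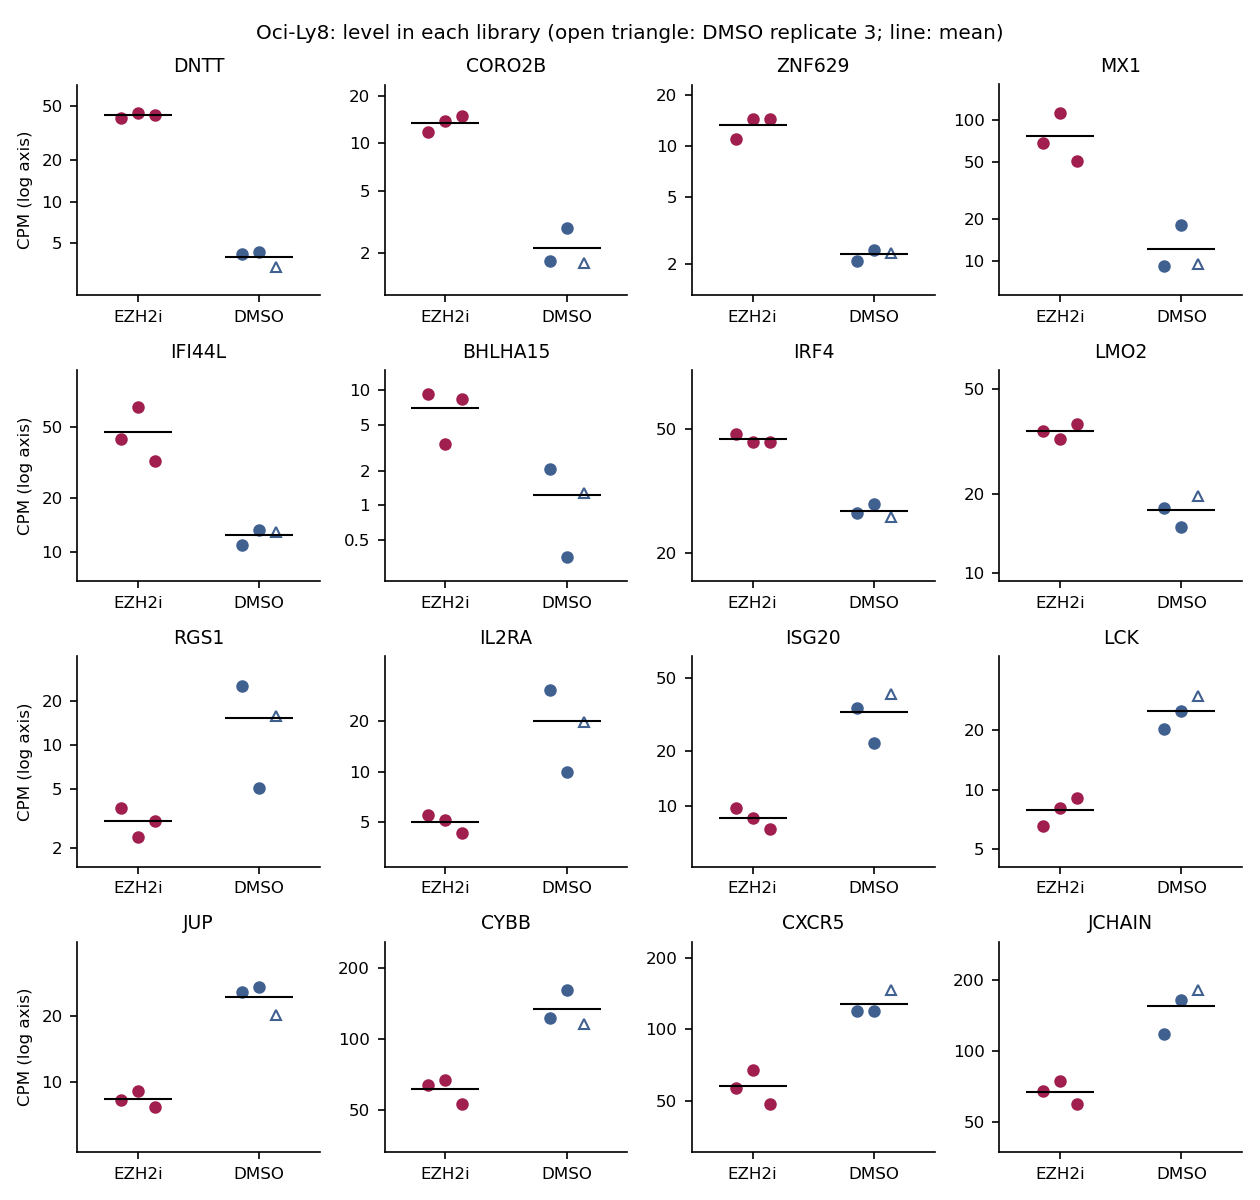
Level of 16 named genes in CPM (vertical axis, log scale) in each library, EZH2i left of DMSO in every panel. Points are libraries, the open triangle is DMSO replicate 3 and the line is the mean of 3 libraries. DNTT, CORO2B and ZNF629 lie higher in EZH2i without overlap, while RGS1 and IL2RA show the wide spread of the DMSO libraries.

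The transcript of the inhibited enzyme was not called. EZH2 had 315, 320 and 310 CPM in EZH2i, against 325, 319 and 280 CPM in DMSO, a log2 change of 0.03 ± 0.06 (adjusted p = 0.809), and the groups overlapped. The log2 changes of its partners EED, SUZ12 and its paralogue EZH1 were -0.10, 0.08 and -0.03, and that of DOT1L was 0.10, none of them called. EED was called lower, at -0.18, without DMSO replicate 1. Of 24 tested genes of PRC2, PRC1 and the demethylases of the same mark, 5 rose (20.8%) and 2 fell (8.33%), against the background of 9.04% and 7.94%, and the list's median was 0.05. BMI1, a core PRC1 subunit, had 32.2, 33.6 and 32.3 CPM in EZH2i, against 18.2, 18.9 and 21.4 CPM in DMSO, a log2 change of 0.75 ± 0.12 (adjusted p = 3.90e-06). The EZH2i values of BMI1 lay close together above all 3 DMSO values. JARID2 (0.68) and EPOP (0.54), accessory subunits of PRC2, and CBX2 (0.32), a PRC1 reader of the mark, also rose, and all 5 members called higher kept their call without DMSO replicate 3. RBBP7, a histone-binding PRC2 subunit, fell by 0.23. MTF2, which recruits PRC2 to DNA, was called lower at -0.23 and lost the call without DMSO replicate 3 (-0.12) and without EZH2i replicates 2 or 3 (both -0.21). Of the 24, 4 were called lower without DMSO replicate 1.

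Genes induced by type I interferon formed the list with the highest share of genes called higher. Interferons signal through STAT proteins and IRF9 to a DNA element upstream of antiviral genes, and B cells use the same genes when they sense nucleic acid. Of 60 tested members, 33 rose (55%) and 3 fell (5%), and the list's median log2 change was 0.48, against -0.0145 over the tested genes with counts. Without DMSO replicate 3, 28 of the 33 and 1 of the 3 kept their call, and the median was 0.41. In the fit of the 6 libraries alone 17 members were called higher and 1 lower. Their summed level was 2684 to 3249 CPM in EZH2i and 2207 to 2503 CPM in DMSO.

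The members called higher with the smallest adjusted p values were MX1, IFI44L, XAF1, EPSTI1 and IFIT1. MX1 (ENSG00000157601, chr21:41420020-41470071) had 68.8, 111 and 51.4 CPM in EZH2i, against 9.19, 17.9 and 9.53 CPM in DMSO (log2 change 2.64 ± 0.21, adjusted p = 8.65e-12). IFI44L, a cytoplasmic protein gene of the same response, had 43, 65.1 and 32.5 CPM in EZH2i, against 11, 13.2 and 12.9 CPM in DMSO (1.92 ± 0.18). IFIT1, whose protein binds viral RNA ends, had 6.68, 11 and 6.65 CPM in EZH2i, against 1.41, 2.19 and 1.89 CPM in DMSO (2.13 ± 0.27). EZH2i replicate 2 was the highest library for all 3. XAF1, a pro-apoptotic partner of XIAP, had 26.6, 33.6 and 23.5 CPM in EZH2i, against 10.5, 11.2 and 7.89 CPM in DMSO (1.49 ± 0.14), and EPSTI1 had 56.5, 69.5 and 37.8 CPM in EZH2i, against 24.6, 22.1 and 17.2 CPM in DMSO (1.35 ± 0.16). None of the 5 genes overlapped between groups, and EZH2i replicate 2 was again highest. Without EZH2i replicate 2, 28 members of the list were called higher.

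Not every member was called. The 6 members in this paragraph were chosen after their values were seen. CMPK2, a mitochondrial nucleotide kinase, had the highest fitted change at 3.29, from 2.42, 2.46 and 1.45 CPM in EZH2i, against 0, 0.566 and 0 CPM in DMSO. DMSO replicate 2 held all its DMSO reads, and the fitted change was 7.93 without that library and 2.71 without DMSO replicate 1. LAP3 had the lowest change among those called higher, 0.34. The transcription factor IRF7 (0.91) rose. IRF9 was called at 0.88, and the call was lost without DMSO replicate 3 (0.76), EZH2i replicate 2 (0.78) or EZH2i replicate 3 (0.89). ISG15, a ubiquitin-like protein gene, was not called: it had 74.8, 94.8 and 72.4 CPM in EZH2i, against 53.4, 66.4 and 111 CPM in DMSO, where replicate 3 was highest. BST2, the virion tether tetherin, had a log2 change of -0.21 with all libraries, not called, and of -0.335 without DMSO replicate 1, where it was called lower.

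ISG20, an exonuclease of single-stranded RNA, had the largest fall of the 3 members called lower. It had 9.77, 8.63 and 7.52 CPM in EZH2i, against 34.3, 22.1 and 40.9 CPM in DMSO, a log2 change of -1.91 ± 0.17 (adjusted p = 2.73e-11), with no overlap. SP110 was called lower at -0.27 and lost the call without DMSO replicate 3 (-0.09) and EZH2i replicates 1 (-0.25) or 3 (-0.23). IFITM2, which blocks viral entry, was called lower at -0.36 and lost the call in 5 of the 6 leave-outs, all but DMSO replicate 2, with log2 changes of -0.28 to -0.36. Of the 3 members called lower, 1 was left without DMSO replicate 3, EZH2i replicate 1 or EZH2i replicate 3.

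**Figure D3:**
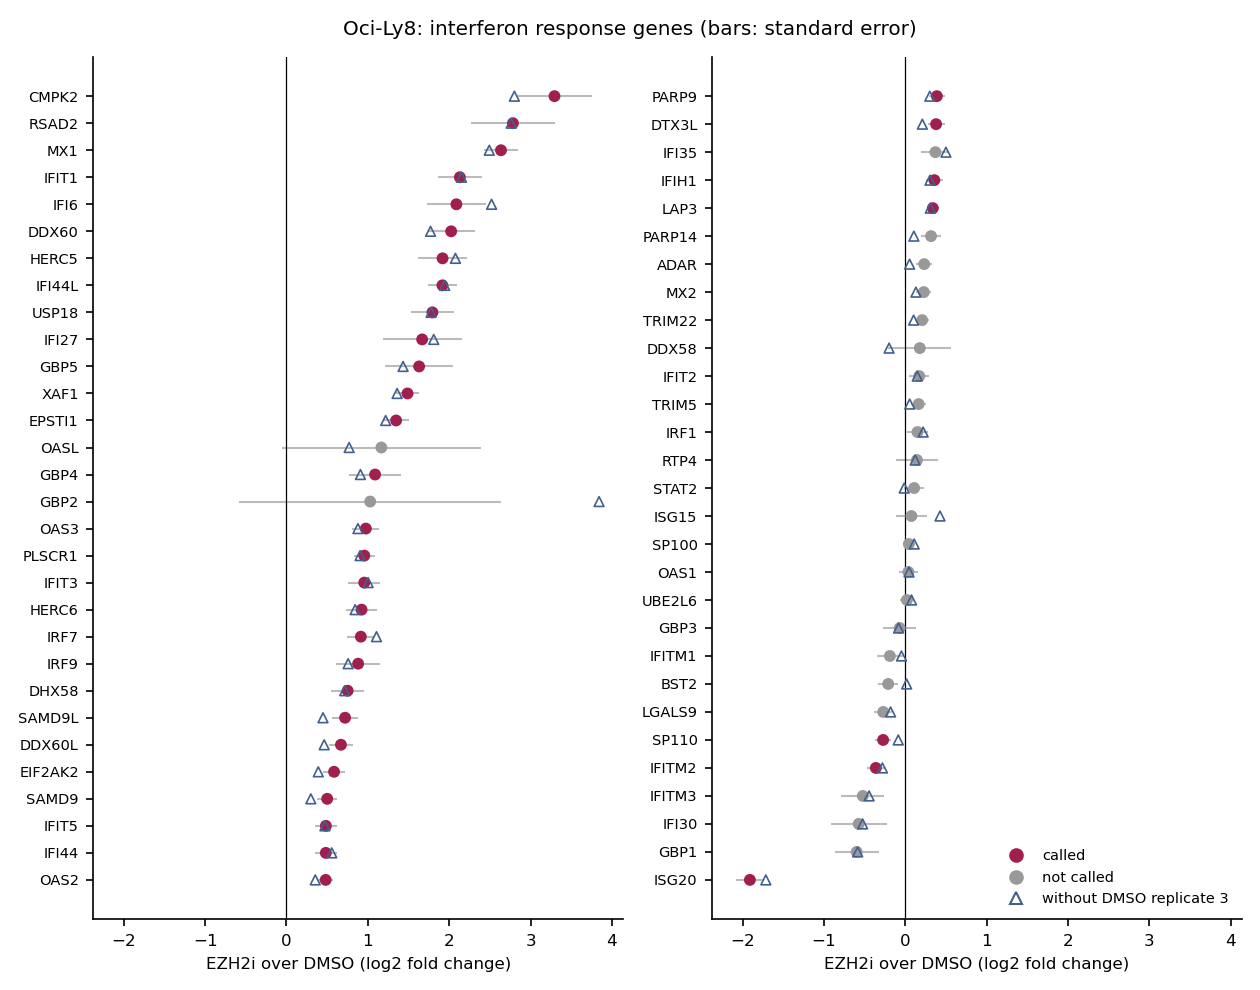
Log2 fold change of EZH2i over DMSO (horizontal axis, bars are the standard error) for 59 of the 60 tested interferon-response genes, ordered by value. Filled crimson points were called (32 higher, 3 lower), grey points were not, and open triangles give the value without DMSO replicate 3. CMPK2 and MX1 lie at the high end and ISG20 at the low end.

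The DNA element of this response was looked up upstream of the members, since it is what the listed genes are known to share. The letters searched were GAAANNGAAA and its reverse complement TTTCNNTTTC, on either strand, in the 250 bases before each start in the RefSeq table of GRCh38.p14. They were found for 28 of the 47 list members with a promoter entry (59.6%), against 416 of 11911 tested genes with one (3.49%). Among the members called higher 19 of 27 held them (70.4%), and among those not called 8 of 18 (44.4%). Over all tested genes they were held by 66 of the 1243 called higher (5.31%) and by 44 of the 1048 called lower (4.2%). The sequences below show the element, in capitals, for 4 genes that rose and for ISG20, which fell, read 5′ to 3′ on the strand of the gene. For MX1 and ISG20 the element lies in an annotated exon of another transcript form, and 30 bases are given, while the other 3 are the exon-free stretch around it.
MX1 (chr21:41431844-41431873, plus strand): ggtcactctgTTTCTCTTTCcgtgaataaa
IFI44L (chr1:78620198-78620381, plus strand): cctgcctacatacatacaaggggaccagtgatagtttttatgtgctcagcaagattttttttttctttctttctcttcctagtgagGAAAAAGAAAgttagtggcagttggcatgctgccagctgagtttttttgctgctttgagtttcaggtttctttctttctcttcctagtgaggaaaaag
IFIT1 (chr10:89392373-89392545, plus strand): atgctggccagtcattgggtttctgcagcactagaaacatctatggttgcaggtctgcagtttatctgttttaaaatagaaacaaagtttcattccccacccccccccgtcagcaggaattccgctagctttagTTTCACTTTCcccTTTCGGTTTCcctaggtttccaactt
EPSTI1 (chr13:42992272-42992491, minus strand): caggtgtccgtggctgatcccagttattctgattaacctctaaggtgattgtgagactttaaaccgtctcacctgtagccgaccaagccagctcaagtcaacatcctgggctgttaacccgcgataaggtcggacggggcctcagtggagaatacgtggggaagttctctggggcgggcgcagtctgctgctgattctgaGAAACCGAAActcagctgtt
ISG20 (chr15:88638937-88638966, plus strand): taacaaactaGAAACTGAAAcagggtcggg
IFIT1 holds 2 copies a few bases apart. The searched window of IFI44L also holds 2, but the stretch printed for it ends inside the second. MX1, EPSTI1 and ISG20 hold 1, and in EPSTI1 it ends 40 bases before the start. XAF1 and CMPK2, which also rose, hold none in this window. A match is a run of letters and not a measured binding site.

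Genes of the plasma cell programme and of the endoplasmic reticulum rose in part. Plasma cells need the transcription factor IRF4, high secretory capacity and the unfolded protein response. Of 30 tested list members 13 rose (43.3%) and 1 fell (3.33%), with a median of 0.35, and 10 and 1 kept their call without DMSO replicate 3. Without EZH2i replicate 1, 8 members were called higher, and in the fit of the 6 libraries alone 1 was. IRF4 (ENSG00000137265, chr6:391739-411443) had 48.3, 45.4 and 45.5 CPM in EZH2i, against 26.9, 28.7 and 26 CPM in DMSO, a log2 change of 0.77 ± 0.15 (adjusted p = 2.24e-04). Both groups of IRF4 values were tight and did not overlap. The stress sensor ERN1 rose by 0.75, the elongation factor ELL2 by 0.67, HERPUD1 by 0.48 and the protein disulfide isomerase PDIA4 by 0.36, with no overlap in any of them. CD38, a surface enzyme of plasma cells, had 1.4, 1.93 and 1.1 CPM in EZH2i, against 0.371, 0.425 and 1.03 CPM in DMSO. It was called at 1.29, but not without DMSO replicate 1 (1.04), DMSO replicate 2 (1.09), EZH2i replicate 1 (1.31) or EZH2i replicate 2 (1.06).

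Other hallmarks of plasma cells did not follow. JCHAIN, the joining chain of secreted antibody, had 67.3, 74.1 and 59.4 CPM in EZH2i, against 118, 164 and 181 CPM in DMSO, a log2 change of -1.20 ± 0.20 (adjusted p = 4.74e-05), with no overlap. PRDM1, which encodes BLIMP1, had 3.3, 4.09 and 3.24 CPM in EZH2i, against 2.97, 1.98 and 1.72 CPM in DMSO. The groups of PRDM1 did not overlap, but its log2 change of 0.65 ± 0.36 was not called (adjusted p = 0.233). XBP1 had a log2 change of -0.02, and SDC1, the plasma cell marker CD138, had 0 counts in 5 of the 6 libraries and 0.0579 CPM in EZH2i replicate 3.

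Genes of the amino acid and endoplasmic reticulum stress response also rose in part: 8 of 28 tested rose (28.6%), none fell, the median was 0.18, and all 8 kept their call without DMSO replicate 3. HERPUD1 and HSPA5 are on this list and on the plasma cell list. ATF3, a stress-induced transcription factor, had 9.03, 9.9 and 7.52 CPM in EZH2i, against 5.12, 2.97 and 2.92 CPM in DMSO (log2 change 1.25 ± 0.20, adjusted p = 5.87e-06). The cystine transporter SLC7A11 rose by 0.92, the stress sensor SESN2 by 0.78 and the serine synthesis enzyme PSAT1 by 0.53, each without overlap between groups. INHBE, named above, is known as a target of the same response. Without DMSO replicate 1 or EZH2i replicate 1, 5 of the 28 were called higher.

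Germinal centre genes had more calls higher than lower. Of 33 tested, 12 rose (36.4%) and 1 fell (3.03%), with a median of 0.20, and 8 and 1 kept their call without DMSO replicate 3. LMO2, a transcriptional adaptor (ENSG00000135363, chr11:33858576-33892076), had 34.7, 32.4 and 36.7 CPM in EZH2i, against 17.6, 15 and 19.6 CPM in DMSO, a log2 change of 1.00 ± 0.15 (adjusted p = 3.67e-06). SSBP2, a partner of LMO2, rose by 0.68, ASB13 by 0.83, BACH2, the repressor that delays plasma cell fate, by 0.65 and the E protein TCF3 by 0.29. The groups overlapped in none of these 5 genes. STAP1 was the member called lower, at -0.39. BCL6, the master repressor of the germinal centre, had 143, 158 and 155 CPM in EZH2i, against 114, 134 and 91.1 CPM in DMSO. It was called at 0.43, but not without DMSO replicate 3 (0.30), its lowest library, or EZH2i replicate 2 (0.40). MYBL1 was called at 0.43, but not without DMSO replicate 3 (0.27) or EZH2i replicates 1 (0.45) or 3 (0.37). MME, the surface marker CD10, had a log2 change of 0.09 and was not called.

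Of 29 tested pan-B-cell genes 8 rose (27.6%) and 4 fell (13.8%), and 6 and 3 kept their call without DMSO replicate 3. The adaptor BLNK had 174, 210 and 205 CPM in EZH2i, against 113, 132 and 116 CPM in DMSO (log2 change 0.70 ± 0.08, adjusted p = 3.42e-09). The B-cell factors ETS1 (0.66) and EBF1 (0.45) and the surface proteins CD72 (0.61) and CD24 (0.41) also rose, all without overlap. PAX5 was called at 0.39 with overlapping groups, and not without DMSO replicate 3 (0.21). MS4A1, which encodes the antibody target CD20, was called at 0.37 and not without DMSO replicate 1 (0.21), its lowest library. The receptor TNFRSF13B (-0.86) and the kinase SYK (-0.27) fell. BANK1 was called lower at -0.39 and not without DMSO replicate 2 (-0.28) or EZH2i replicates 1 (-0.40) or 3 (-0.33). Of the 4 members called lower, 2 were left without EZH2i replicate 1 or 3. TNFRSF13C, the BAFF receptor, had a log2 change of -0.05 and was not called.

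Among genes of B-cell receptor signalling, 5 of 30 tested rose (16.7%) and 8 fell (26.7%), and 3 and 6 kept their call without DMSO replicate 3. Without EZH2i replicate 3, 3 members were called higher and 5 lower. Members that damp the signal were among those that fell: the Fc receptor FCGR2B had 7.2, 6.1 and 5.84 CPM in EZH2i, against 13, 13.4 and 9.35 CPM in DMSO (log2 change -0.92 ± 0.19), and the phosphatase PTPN6 had 4.04, 4.02 and 4.74 CPM in EZH2i, against 5.71, 8.14 and 10.4 CPM in DMSO (-0.90 ± 0.19). Activating members fell as well, with the kinase subunit PIK3CD at -0.39 and SYK as given above, while the adaptor BLNK and the inhibitory coreceptor CD72 rose. The adaptor GRAP fell by 0.70.

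Genes of the phagocyte-type NADPH oxidase, which B cells also use to make superoxide, were mostly called lower. Of 7 tested members 5 were called lower (71.4%) and none higher, with a median of -0.45. Leaving out DMSO replicate 3 kept 4 of the 5 calls and had 1 other member called higher. CYBB, the catalytic subunit (ENSG00000165168, chrX:37780018-37813461), had 63.6, 66.7 and 52.8 CPM in EZH2i, against 122, 161 and 116 CPM in DMSO, a log2 change of -1.13 ± 0.13 (adjusted p = 1.63e-08). All 3 EZH2i values of CYBB lay far below the DMSO values. The cytosolic subunits NCF1 and RAC2 fell by 0.65 and 0.45. NCF1 has near-identical pseudogenes with which reads may be shared, so its value is uncertain. CYBA was called at -0.42, and not without DMSO replicate 3 (-0.10), its highest library, or any EZH2i library (-0.41 to -0.45). Without EZH2i replicate 2 or 3, 3 of the 7 were called lower.

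Of 24 tested NF-kB genes 5 fell (20.8%) and none was called higher, and all 5 kept their call without DMSO replicate 3, while the list's median was -0.0091. BIRC3, an apoptosis inhibitor and target of the pathway (ENSG00000023445, chr11:102317450-102339403), had 97.4, 98.4 and 91.9 CPM in EZH2i, against 199, 149 and 190 CPM in DMSO (log2 change -0.90 ± 0.14, adjusted p = 1.08e-05). BCL3 (-1.08), an atypical inhibitor protein, and the subunit RELB (-0.57) fell without overlap. The cytokine LTB fell by 0.94, with DMSO replicate 1 within the range of the EZH2i libraries. NFKB2 was called at -0.53, and not without DMSO replicate 1 (-0.33). Without DMSO replicate 1 or 2, 2 members were called higher. In the BCL2 family 1 of 15 tested genes rose (6.67%), the death inducer HRK (0.36), and 3 fell (20%), among them the anti-apoptotic BCL2A1, another NF-kB target (-1.32), and BAX (-0.39). Without DMSO replicate 3 the 1 call higher and 2 of the 3 lower were kept, and without DMSO replicate 2, 5 of the 15 were called lower. BCL2 itself was not called, with 231, 230 and 212 CPM in EZH2i, against 232, 190 and 134 CPM in DMSO. BCL2 was called higher, at 0.47, without DMSO replicate 1.

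Among cytokine signalling genes, receptors and signal transducers were called in both directions. Of 33 tested genes for receptors, JAK and STAT proteins and SOCS inhibitors, 9 rose (27.3%) and 4 fell (12.1%), and 6 and 3 kept their call without DMSO replicate 3. The receptor genes IL2RA, given above, and IL10RA fell, the second with 3.3, 3.65 and 2.6 CPM in EZH2i, against 13, 8.84 and 10.7 CPM in DMSO. The signal transducers STAT5A (0.61) and STAT3 (0.50) and the receptor IFNLR1 for interferon lambda (0.53) rose, with no overlap in any of the 3.

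Of 24 tested genes for migration and adhesion 3 rose (12.5%) and 6 fell (25%), and 2 and 4 kept their call without DMSO replicate 3. CXCR5, the receptor that guides B cells into follicles (ENSG00000160683, chr11:118883892-118897787), had 57, 67.6 and 48.7 CPM in EZH2i, against 119, 120 and 146 CPM in DMSO, a log2 change of -1.15 ± 0.11 (adjusted p = 8.35e-11). The groups were well apart. S1PR1, which leads lymphocytes out of lymphoid tissue, fell by 0.80, the integrin gene ITGB7 by 0.79 and CD48 by 0.90. CD58, the ligand that T and NK cells use to bind lymphoma cells, rose by 0.81, with 6.39, 5.58 and 7.29 CPM in EZH2i, against 3.04, 3.54 and 4.55 CPM in DMSO. On the list of memory and exit genes, 2 of 22 rose and 3 fell: SKI, a repressor of TGF-beta signalling, rose by 1.16 beside BACH2, and the costimulatory ligand CD86 fell by 0.64 beside S1PR1 and ITGB7. These shares, 9.09% and 13.6%, stand beside 9.04% and 7.94% of all tested genes, and all 5 calls were kept without DMSO replicate 3. Leaving out DMSO replicate 1 gave 6 of the 22 called lower.

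Genes for antigen presentation were called in both directions. Of 17 MHC class II genes 2 were called higher and 2 lower (11.8% each, against 9.04% and 7.94% of all tested genes). Neither call higher was kept without DMSO replicate 3, though 2 other members were called higher then, and both calls lower were kept. Of 19 class I genes 4 were called higher (21.1%) and 1 lower (5.26%). Without that library 6 class I genes were called higher, the 4 among them, and the call lower was lost. HLA-DOB, which restrains peptide loading, fell by 1.55, with 0.808, 1.26 and 0.81 CPM in EZH2i, against 3.11, 2.41 and 2.92 CPM in DMSO. CIITA, the class II master regulator, was called at 0.30 with overlapping groups, and not without DMSO replicate 1 (0.26), DMSO replicate 3 (0.15) or any EZH2i library (0.27 to 0.32). The class I genes HLA-F (0.67) and HLA-B (0.37) and the peptidase ERAP1 (0.39) rose. Without EZH2i replicate 3 no class II gene was called higher. HLA genes are similar in sequence, so reads may be shared between them.

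Developmental genes that PRC2 is known to keep silent were mostly still silent or close to it. Of 64 tested homeobox and other developmental genes 6 were called higher and none lower, 9.38% of the list, against 9.04% of all tested genes. Only 43 of the 64 had a count in the 6 libraries, against 16702 of the 17749 tested genes. A gene without counts cannot be called, so 9.38% understates the share among members that could be. Over the 43 with a count the median was 0.21, and 3 of the 6 kept their call without DMSO replicate 3. Without EZH2i replicate 2 or 3, 3 were called. HOXB6 had 12.8, 10.9 and 12.4 CPM in EZH2i, against 5.71, 7.5 and 7.89 CPM in DMSO (log2 change 0.78 ± 0.17), and HOXB3 rose by 0.94, with 11.5, 8.93 and 11.9 CPM in EZH2i, against 7.41, 5.52 and 3.78 CPM in DMSO. These 2 neighbours in the HOXB cluster overlap in the annotation, and how the counting treated shared reads, or strand, is not given in the sources used here. HOXA7 was called at 0.59, and not without DMSO replicates 1 (0.46) or 2 (0.47) or EZH2i replicate 3 (0.56). DLX1 and LHX4 were called from levels under 1 CPM in every library. DLX1 (2.08) lost the call without DMSO replicates 2 (1.78) or 3 (1.91) or EZH2i replicate 2 (1.77) and had 2.74 without DMSO replicate 1. LHX4 (1.98) lost it without DMSO replicate 3 (1.49) or EZH2i replicates 2 (2.01) or 3 (1.37).

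Of 27 tested genes known as PRC2 targets in germinal centre B cells, 5 were called higher, IRF4 and CIITA among them, and 2 lower, CD86 among them (18.5% and 7.41%, against 9.04% and 7.94% of all tested genes). Of these, 4 of the 5 and both of the 2 kept their call without DMSO replicate 3. The death receptor TNFRSF21 had 13.4, 13.2 and 12.7 CPM in EZH2i, against 7.71, 7.64 and 5.06 CPM in DMSO (log2 change 0.93 ± 0.15, adjusted p = 7.71e-06), and ABAT, an enzyme of GABA breakdown, rose by 0.63. The cell-cycle inhibitor CDKN1A had 44.6, 36.3 and 42 CPM in EZH2i, against 27.7, 22 and 31.4 CPM in DMSO. CDKN1A was called at 0.61 with no overlap, and not without DMSO replicate 2 (0.47) or EZH2i replicates 1 (0.54) or 3 (0.59). Its relative CDKN1B was called lower at -0.29, and not without DMSO replicate 1 (-0.14) or EZH2i replicates 1 or 2 (both -0.27). Without EZH2i replicate 1 or 3, 3 of the 27 were called higher.

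A small set of genes appeared in EZH2i where DMSO had no reads. Of 446 tested genes with 0 counts in all 3 DMSO libraries and a count in EZH2i, 21 were called higher, and 11 of them also without DMSO replicate 3. In the other direction 8 of 207 genes with 0 counts in EZH2i were called lower. Of all tested genes 9.04% were called higher and 7.94% lower. JAM3, a junctional adhesion molecule, had 14, 6 and 9 counts in EZH2i replicates 1 to 3, at least 8.56-fold higher than DMSO with DMSO set at a floor of 3 counts over the group. On the same scale IGF2BP2, an RNA-binding protein, had 10, 7 and 3 counts (at least 5.91-fold higher), B3GAT2 9, 5 and 3 (at least 5.02-fold) and DNAH5 5, 6 and 3 (at least 4.13-fold). COL8A2 had 7, 2 and 6 counts and GIPC3 had 5, 5 and 5, both at least 4.43-fold higher. These are still low levels: the highest, JAM3, stood at 0.446 to 1.03 CPM. COL8A2 lost its call without EZH2i replicate 1.

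Of 40 cell-cycle genes none was called higher and 2 were called lower (5%, against 7.94% of all tested genes), neither of which kept the call without DMSO replicate 3. Without DMSO replicate 1, 10 of the 40 were called lower, and without DMSO replicate 2, 6 higher and 4 lower. MYC had 425, 413 and 418 CPM in EZH2i, against 343, 323 and 376 CPM in DMSO, with no overlap. It was called at 0.27, and the call held in 1 of 6 leave-outs, that of DMSO replicate 3 (0.33), the other 5 giving 0.22 to 0.28. Of 32 MYC and nucleolar genes 1 was called higher, MYC itself, and 5 lower, among them LDHA (-0.33, not called without EZH2i replicate 3, -0.24). The 5 are 15.6% of the list, and without DMSO replicate 3 MYC and 3 of the 5 kept their call. Leaving out DMSO replicate 1 gave 14 of the 32 called lower. Of 24 cholesterol genes 4 were called higher (16.7%, against 9.04% of all tested genes) and 1 lower (4.17%), and 3 and 1 kept their call without DMSO replicate 3. HMGCS1 was called at 0.40 and not without DMSO replicate 1 (0.31). Of 28 p53 targets 3 rose (10.7%) and 2 fell (7.14%), shares near the background of 9.04% and 7.94%, and all 5 kept their call without DMSO replicate 3. MDM2, the p53 ligase, had 349, 370 and 351 CPM in EZH2i, against 257, 285 and 217 CPM in DMSO (0.49 ± 0.08), and the repair gene DDB2 fell by 0.61. Of 24 genes for Toll-like receptors and nucleic acid sensing 3 rose (12.5%) and 6 fell (25%), and 2 and 4 kept their call without DMSO replicate 3. The ligase TRIM25 rose by 0.45, TLR10 fell by 0.74, and IRF8 was called at -0.48, but not without DMSO replicate 2 (-0.32). Without DMSO replicate 1, 1 of these 24 was called higher and 10 lower.

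Markers of other cell types were at or near 0 for the most part. Of 18 T-cell markers 6 were at 0 in all 6 libraries, among them CD2, CD7 and both TRBC genes. The summed level of the 12 tested T-cell markers was 81.6 to 85.9 CPM in EZH2i and 86.9 to 104 CPM in DMSO. LCK (given above) and CD3G fell, the second with 3.45, 3.65 and 3.7 CPM in EZH2i, against 8.6, 8.14 and 8.15 CPM in DMSO, and CD247, the zeta chain of the T-cell receptor, rose by 1.03, with 26.7, 24.7 and 29.4 CPM in EZH2i, against 10.6, 14.8 and 14.4 CPM in DMSO. Of the NK, myeloid and epithelial markers, 10 of 14, 7 of 15 and 7 of 10 were at 0 in all 6 libraries, and the lysozyme gene LYZ (-0.91) was the 1 member called. Among stromal and endothelial markers PECAM1, which B cells also carry, fell by 0.97, with 17, 23.8 and 19.6 CPM in EZH2i, against 33.1, 50.2 and 34.8 CPM in DMSO. COL1A1 and ACTA2 were called higher from under 2 CPM: COL1A1 (2.20) lost the call in 4 leave-outs (1.65 to 2.15) and had 3.13 without DMSO replicate 3, and ACTA2 (1.11) lost it in 5 (1.00 to 1.22). Of 9 tested neuronal markers 3 were called higher, MAP2 (1.02) and CHL1 (2.97) among them, and none of these calls held without DMSO replicate 3. MAP2 was at 0.82 and CHL1 at 2.50 then, and CHL1 at 4.16 without DMSO replicate 2.

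The same inhibitor was also added on top of DOT1Li, which gives an EZH2i effect in libraries that share none with the comparison above. In the combination against DOT1Li 1924 genes were called higher (10.8%) and 1529 lower (8.61%). Of the 1605 genes called higher with EZH2i against DMSO 1039 (64.7%) were called higher there too and none was called lower, and they make 54.0% of the genes called higher in the combination. Of the 1409 called lower 733 (52.0%) were called lower there too, 47.9% of that list, and 3 were called higher. Among the calls kept without DMSO replicate 3, the shares were 788 of 1030 (76.5%) and 318 of 551 (57.7%). DOT1Li replicate 3 had a low length slope as well, 0.233, so both comparisons have a library of this kind on the control side. Without both, 887 of 1358 genes called higher (65.3%, and 49.0% of the 1811 called in the combination) and 513 of 948 called lower (54.1%, and 33.7% of 1524) were shared. Pearson's r of the log2 changes was 0.767 across 11385 genes and 0.723 without both libraries, as a description across genes, which are not independent.

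The named genes were then read in the combination against DOT1Li. MX1 averaged 217 ± 43.2 CPM in the combination and 33.3 ± 1.44 CPM with DOT1Li alone (SD, n = 3 each), a log2 change of 2.69. Of the 60 interferon-response genes 42 were called higher and 1 lower in the combination, and 32 of the 42 were also called higher with EZH2i against DMSO. CXCR5 averaged 24.7 ± 1.84 CPM in the combination and 73.3 ± 1.29 CPM with DOT1Li (log2 change -1.57), and JCHAIN (-1.35), CYBB (-1.27), JUP (-1.18) and LCK (-1.38) fell there as well. RGS1 was not called there: it averaged 3.28 ± 0.445 CPM in the combination and 3.91 ± 1.31 CPM with DOT1Li, a log2 change of -0.14. KLF2, a factor of resting lymphocytes, was called higher in the combination at 3.31, and had 0.147, 0.223 and 0.116 CPM in EZH2i, against 0.222, 0.354 and 0.343 CPM in DMSO, not called. Whether the EZH2i effects with and without DOT1Li differ was not tested.

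**Figure D4:**
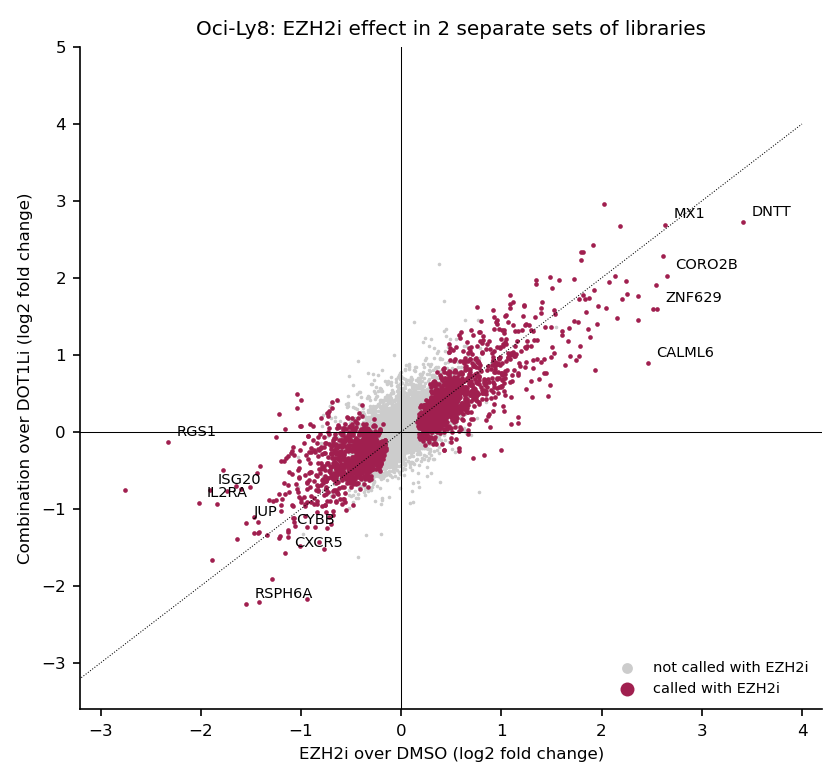
Log2 fold change of the combination over DOT1Li (vertical axis) against that of EZH2i over DMSO (horizontal axis) in Oci-Ly8, for 11385 genes with a mean log2 CPM of at least 1, with the line of equal change dotted and genes called with EZH2i against DMSO in crimson. The 2 comparisons share no library, and Pearson's r across genes is 0.767.

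The EZH2i effect in Oci-Ly8 was set against the mean EZH2i effect in Oci-Ly7, SUDHL6 and Oci-Ly18, within the same fit. It was higher in Oci-Ly8 for 647 genes (3.65%) and lower for 835 (4.7%). Of the 1605 genes called higher in Oci-Ly8, 393 (24.5%) were among the 647, and of the 1409 called lower, 425 (30.2%) were among the 835. Both tests contain the same Oci-Ly8 effect from the same 6 libraries, so part of this overlap is built in. These counts moved when 1 Oci-Ly8 library was left out. Without DMSO replicate 1, 2 or 3 they were 810 and 1180, 1229 and 1486, and 444 and 548. Without EZH2i replicate 1, 2 or 3 they were 449 and 559, 450 and 545, and 444 and 528. The fall without DMSO replicate 3 was thus like that without an EZH2i library. ZNF629 and CORO2B were among the genes with the largest excess. The log2 change of ZNF629 was 2.55 in Oci-Ly8, 0.72 in Oci-Ly7, 0.15 in SUDHL6 and 0.49 in Oci-Ly18, a difference of 2.10 (adjusted p = 1.1e-14). For CORO2B the values were 2.65, 0.03, 0.10 and 1.54 in the same order of lines, a difference of 2.09. RTKN2 (2.55, 0.36, 0.49 and 0.12) and the myosin gene MYO7B (1.04, -0.04, -0.79 and -2.55) had differences of 2.22 and 2.17. MYO7B lost its call in Oci-Ly8 without DMSO replicate 3 (0.79) or EZH2i replicate 3 (0.97). DNTT was not among them: its log2 change was 3.42 in Oci-Ly8, 1.14 in Oci-Ly7, -0.57 in SUDHL6 and 4.76 in Oci-Ly18. The DNTT change in Oci-Ly18 starts from few reads (mean 3.03 CPM in EZH2i, against 0.101 CPM in DMSO), and that in Oci-Ly7 was not called.

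Interferon-response genes were also among those that differed between Oci-Ly8 and the other lines. MX1 had log2 changes of 2.64 in Oci-Ly8, 0.45 in Oci-Ly7, -0.07 in SUDHL6 and 0.26 in Oci-Ly18, a difference of 2.42 (adjusted p = 3.2e-08), and IFIT1 had 2.13, 1.00, -0.47 and -1.45, a difference of 2.44. IFIT1 rests on few reads in Oci-Ly7 (mean 0.432 CPM in EZH2i, against 0.23 CPM in DMSO, not called) and in Oci-Ly18 (0.669 CPM in EZH2i, against 1.9 CPM in DMSO). Of the 60 list members Oci-Ly8 had 33 called higher and 3 lower, while Oci-Ly7 had 4 higher and 5 lower, SUDHL6 had 11 higher and 4 lower, and Oci-Ly18 had 4 higher and 29 lower. Some members had few reads in the other lines and could hardly be called there. Examples are IFI44L in Oci-Ly7 (0.122 CPM in EZH2i, against 0 CPM in DMSO) and EPSTI1 in SUDHL6 (0.665 CPM in EZH2i, against 0.453 CPM in DMSO). The difference itself was called higher in Oci-Ly8 for 24 members, 18 of them called higher in Oci-Ly8.

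On the lower side CXCR5 had a log2 change of -1.15 in Oci-Ly8, -0.66 in Oci-Ly7, 1.61 in SUDHL6 and 2.67 in Oci-Ly18, a difference of -2.36. CXCR5 was close to absent in SUDHL6 (mean 0.145 CPM in EZH2i, against 0.0424 CPM in DMSO, not called) and in Oci-Ly18 (0.377 CPM in EZH2i, against 0.0537 CPM in DMSO), so both changes rest on few reads. RGS1 had -2.32, 3.42, 4.72 and -1.06, a difference of -4.68. Its change in Oci-Ly7 (0.308 CPM in EZH2i, against 0.0225 CPM in DMSO) was not called, and that in SUDHL6 (1.3 CPM in EZH2i, against 0.041 CPM in DMSO) also rests on few reads. SMIM14, a small membrane protein gene, had 48.5, 44.2 and 45.1 CPM in EZH2i, against 96, 125 and 160 CPM in DMSO in Oci-Ly8. Its log2 changes were -1.47 in Oci-Ly8, 0.40 in Oci-Ly7, 0.53 in SUDHL6 and 0.23 in Oci-Ly18, a difference of -1.85. HMOX1, the heme oxygenase, had -0.84, 1.13, 1.00 and 1.66, and lost its call in Oci-Ly8 without DMSO replicate 3 (-0.50) or EZH2i replicate 1 (-0.74). CYBB fell in Oci-Ly8 by 1.13 and in the other lines by 2.01, 2.32 and 2.26, so its fall was the smaller one in Oci-Ly8 by 1.07 (adjusted p = 6.7e-03). The fall of CYBB in SUDHL6 rests on few reads (mean 0.179 CPM in EZH2i, against 0.933 CPM in DMSO). The test sets Oci-Ly8 against a mean, and it does not say that the other 3 lines were alike.

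**Figure D5:**
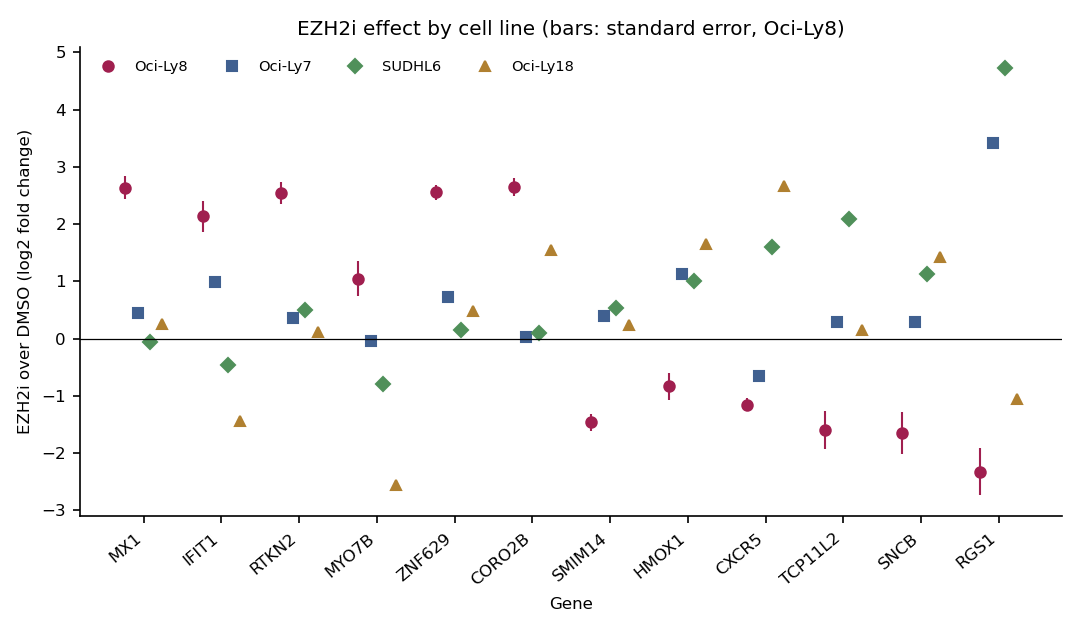
Log2 fold change of EZH2i over DMSO (vertical axis) for 12 genes (horizontal axis) in Oci-Ly8 (with the standard error), Oci-Ly7, SUDHL6 and Oci-Ly18. MX1, IFIT1, RTKN2, MYO7B, ZNF629 and CORO2B lie higher in Oci-Ly8 than in the other lines, and SMIM14, HMOX1, CXCR5, TCP11L2, SNCB and RGS1 lie lower than the mean of those lines.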

How the data were processed

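RNA-seq was made from 4 lymphoma lines under 4 treatments with 3 replicates each, 48 libraries. The authors deposited 1 table of raw counts per gene, with no normalization. STAR, DESeq2 and GRCh38 (hg38) are named in the submitters' processing notes without versions. Neither the counter nor its strand setting is stated. Gene coordinates and exonic lengths come from GENCODE 29 on GRCh38. No column of another sample was present.

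The counts were fitted with edgeR 4.0.16 (R 4.3.3; quasi-likelihood test, robust) on all 48 libraries in 16 groups with 32 residual degrees of freedom, after filterByExpr and TMM scaling, with Benjamini-Hochberg adjustment over 17749 genes and calls at an adjusted p below 0.05. CPM uses TMM-scaled library sizes, and a standard error is the log2 change divided by the square root of F. Library depth was 13403899 to 18262916 counts in the 6 libraries compared. The script was tested on simulated data of 17559 genes: for EZH2i against DMSO it recovered 40 of 40 genes raised by a log2 change of 1, 34 of 40 lowered by 1 and 22 of 40 raised by 0.5, with 11 false calls. All simulated libraries followed the same rule of spread, without a length trend between replicates. The wider spread of the real DMSO libraries and the low slope of DMSO replicate 3 were not simulated. The 11 false calls therefore do not measure false calls in the real comparison.

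Named genes are a panel of B-cell and Polycomb genes, the 10 highest and 10 lowest called coding genes, up to 5 called members per list and direction, the 6 highest genes with 0 counts in DMSO, and the 6 highest and 6 lowest differences from the other lines. The rule picked 173 genes, of which 138 are named, and 12 more were chosen after their values were seen. Results for a few genes are not reported here. The genes and the 29 lists were chosen with earlier results of these data known. Alternatives were DESeq2 1.42.0, its size factors, no filter, fits on 12 or 6 libraries, a replicate block, a length offset and leaving out libraries; a fit on 5 libraries was chosen after seeing the data. Promoter sequence comes from RefSeq (GRCh38.p14).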

Additional observations from a re-analysis of the deposited data

Results flagged for a closer look

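For 55 of the named genes the EZH2i effect in Oci-Ly8 differed from the mean effect in Oci-Ly7, SUDHL6 and Oci-Ly18 by the edgeR test of the difference itself. In 47 of the 55 the difference was also called without DMSO replicate 3. Among those not called then were INHBE, IRF9, TNFRSF21, IRF4, MYBL1, BACH2 and CBX2. All values are differences of log2 changes, Oci-Ly8 minus the mean of the other lines.

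In 33 genes the effect was higher in Oci-Ly8 than in that mean, which does not make it higher than in each line. For MX1 and ZNF629, given above, Oci-Ly8 had the highest value of the 4 lines. The log2 change of IRF4 was 0.77 in Oci-Ly8 and 0.76 in Oci-Ly18, and that of CD72 was 0.61 and 0.59. In Oci-Ly7 these 2 genes had -0.67 and -0.53. BLNK had 0.70 in Oci-Ly8 and 1.03 in Oci-Ly18. Among interferon-response genes these differences were 2.437 for IFIT1, 2.423 for MX1, 1.695 for EPSTI1, 1.124 for IRF7, 1.07 for IRF9 and 0.4744 for LAP3. Among stress and plasma cell genes they were 1.739 for INHBE, 1.585 for CD38, 1.392 for SLC7A11, 0.8986 for SESN2, 0.8902 for PSAT1, 0.5785 for IRF4, 0.4984 for HERPUD1 and 0.3489 for PDIA4. Among germinal centre and B-cell genes they were 0.5826 for CD72, 0.5698 for SSBP2, 0.4962 for MYBL1, 0.4757 for ETS1, 0.4639 for BACH2, 0.4299 for TCF3 and 0.3598 for BLNK. The NADPH oxidase gene CYBB (1.072) was lower with EZH2i in all 4 lines, and by less in Oci-Ly8 than in the mean of the others. The remaining values were 2.22 for RTKN2, 2.169 for MYO7B, 2.099 for ZNF629, 2.092 for CORO2B, 1.067 for CD247, 0.8171 for IFNLR1, 0.7054 for MDM2, 0.5979 for TNFRSF21, 0.4783 for HMGCS1, 0.4452 for ERAP1 and 0.2336 for CBX2.

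In 22 genes the effect was lower in Oci-Ly8 than in that mean. Among surface receptors and adhesion genes the differences were -2.359 for CXCR5, -1.621 for CD48, -1.415 for TNFRSF13C and -0.4022 for MS4A1. TNFRSF13C was not called in Oci-Ly8 itself, and its log2 change was 2.75 in Oci-Ly18. Among signalling genes they were -4.684 for RGS1, -1.465 for LCK, -1.387 for BANK1, -1.147 for BCL3, -1.114 for PTPN6, -0.7951 for STAT5A and -0.3968 for RAC2. ELL2 (-0.913), STAT5A, MS4A1 and RAG2 rose in Oci-Ly8, and by less than in the mean of the other lines. For ELL2 and MS4A1 that mean is carried by SUDHL6. The log2 changes of ELL2 were 0.41 in Oci-Ly7, 4.39 in SUDHL6 and -0.06 in Oci-Ly18, and those of MS4A1 were -0.21, 2.23 and 0.28 in the same order, of which neither value for Oci-Ly7 nor that of ELL2 in Oci-Ly18 was called. The remaining values were -2.596 for SNCB, -2.44 for TCP11L2, -2.099 for HMOX1, -1.853 for SMIM14, -1.61 for JUP, -1.423 for HLA-DOB, -1.181 for ISG20, -1.146 for IFITM2, -1.135 for JCHAIN and -0.6779 for RAG2. The mean of the other lines is carried by Oci-Ly7 for RAG2, by SUDHL6 for BANK1 and by Oci-Ly18 for IFITM2. Log2 changes in Oci-Ly7, SUDHL6 and Oci-Ly18 were 3.33, -0.02 and 0.11 for RAG2. They were -0.25, 3.68 and -0.44 for BANK1 and -1.08, -0.05 and 3.48 for IFITM2. For each gene only the value of the line that carries the mean was called.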

How the results depend on the processing

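The size of the call lists depended on which libraries set the spread. For EZH2i against DMSO (1605 genes higher, 1409 lower), the fit on the 12 Oci-Ly8 libraries gave 723 and 286, that on the 6 libraries compared 352 and 104, and that on 5 libraries without DMSO replicate 3, chosen after seeing the data, 609 and 299. With a change of at least 1 on the log2 scale (444 and 203), the 6 libraries gave 217 and 61, the 5 libraries 220 and 64, and the 12 libraries 102 lower. For the combination against DOT1Li (1924 and 1529), 12 libraries gave 916 and 343 and 6 libraries 1009 and 427. For the difference from the other lines (647 and 835), DESeq2 called 1003 higher. Leaving out 1 library, or both low-slope libraries, gave 1168 to 1954 genes higher and 706 to 2140 lower for EZH2i against DMSO, 355 to 504 and 143 to 288 of them by at least 1, 444 to 1229 and 528 to 1486 for the difference between lines, and 1442 to 1888 and 846 to 1524 for the combination. The widest counts came without DMSO replicate 1 (1954 and 2140) and the fewest lower without DMSO replicate 3 (706). For EZH2i against DMSO, size factors, no filter, the length offset and DESeq2 left both counts within 1.5 times.

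Replicate numbers are shared between groups, but the labels do not say what they mean. The deviations of same-numbered libraries correlated at 0.262, 0.179 and 0.0891, against -0.211 to 0.0437 for the other pairs, and each library correlated best with its own number. The main fit did not use the numbers. With the replicate block 2178 genes were called higher and 2050 lower, and for the difference between lines 1225 and 1408.

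Of the 135 named genes called, none changed sign under any alternative. DESeq2 kept 131, the length offset 130, the fit without DMSO replicate 3 118, and the 6-library fit 61 of the 125 it tested. Of 58 counts over lists, 10 moved by more than 1.5 times without DMSO replicate 3 and 38 in the 6-library fit. Genes under about 1 CPM rest on few reads, and counting error limits them.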

Other observations

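Genes of early B-cell development, beside DNTT, were looked up after their values were seen. RAG1, which with RAG2 cuts antigen receptor genes for rearrangement, had 384, 417 and 358 CPM in EZH2i, against 201, 218 and 118 CPM in DMSO, a log2 change of 1.10 ± 0.17 (SE, n = 3 each) by edgeR, and 0.88 without DMSO replicate 3. RAG2 had 69, 88.6 and 75.3 CPM in EZH2i, against 46.6, 69.2 and 53.2 CPM in DMSO. The groups of RAG2 overlapped, and its call at 0.46 was lost without DMSO replicate 1 (0.34), DMSO replicate 3 (0.42) or EZH2i replicate 2 (0.36). The surrogate light chain genes IGLL1 and VPREB1 also rose, at low levels, IGLL1 with 2.79, 2.9 and 1.79 CPM in EZH2i, against 0.741, 0.283 and 0.343 CPM in DMSO (2.39 ± 0.58), and VPREB1 with 2.35, 2.83 and 3.93 CPM in EZH2i, against 1.78, 1.27 and 1.63 CPM in DMSO (0.99 ± 0.22).

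TCF7, a transcription factor best known from T-cell development, had 11.7, 14.8 and 16.1 CPM in EZH2i, against 4.82, 6.79 and 5.32 CPM in DMSO, a log2 change of 1.33 ± 0.14. Its relative LEF1 had 82.2, 78.2 and 80 CPM in EZH2i, against 72.5, 77.3 and 63.1 CPM in DMSO, and was not called (edgeR adjusted p = 0.144). In the combination against DOT1Li the log2 changes were 0.67 for RAG1, 5.14 for IGLL1, 1.10 for VPREB1 and 1.19 for TCF7. RAG2 (0.27) and LEF1 (0.18) were not called there (edgeR adjusted p = 0.22 and 0.126).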
